A study of Mus musculus with 32 samples.

Results

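Nrf2 (gene symbol Nfe2l2), its inhibitor Keap1 and 8 genes that Nrf2 is known to switch on were followed in the spinal cord of mice that carry a human SOD1 transgene with the G93A mutation, a model of amyotrophic lateral sclerosis (ALS). The 10 genes were taken by name from the table of raw read counts: Nfe2l2, Keap1, Hmox1, Nqo1, Gclm, Gclc, Slc7a11, Gsr, Srxn1 and Txnrd1. They are 10 of the 42524 genes in that table, and all 10 had enough reads to be tested at both ages.

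RNA was sequenced from the spinal cord of 32 mice in 8 groups of 4. The groups were wild-type (WT) littermates and G93A mice, either untreated or given OKN-007, a nitrone compound with antioxidant and anti-inflammatory properties, in the drinking water, at 90 or 155 days. The study's methods give the early age as 95 days and place it near disease onset, with 155 days before end stage, while the sample labels say 90 days, the name used below. The dose and start of treatment of the sequenced mice, and whether the labelled times are ages or periods of treatment, are not settled by the labels. In the study's methods the cohorts killed at 95 and 155 days of age received the higher of its doses. Which cohorts were sequenced is not stated there. All mice were on the C57BL/6J background. The study's mice were predominantly female, and only females were used at the higher dose. In the G93A mice the transgene is driven by the human SOD1 promoter and so is not limited to motor neurons. A 25 mg piece of cord was used for each RNA sample, so fewer cells of a type and less RNA per cell cannot be told apart. The questions were whether the Nrf2 pathway differed between G93A and WT cord, at which age, and whether OKN-007 shifted it.

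Nrf2 is a transcription factor that guards cells against oxidants and reactive chemicals. Under resting conditions Keap1 holds Nrf2 in the cytoplasm and presents it to a Cul3 ubiquitin ligase for destruction. When oxidants modify Keap1, Nrf2 accumulates, pairs with a small Maf protein in the nucleus and binds a short DNA motif, the antioxidant response element, beside genes for glutathione synthesis, thioredoxin recycling, quinone detoxification and heme breakdown. Because much of this control acts on the protein, the level of Nfe2l2 RNA and the activity of Nrf2 need not move together. In the spinal cord the pathway is best known from astrocytes, and Hmox1 is also strongly inducible in microglia and macrophages.

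The start-site regions of the genes are shown here because the response element is the feature that would place a gene under Nrf2. RefSeq windows of 300 bases on GRCm38.p6, reaching from 250 bases before to 50 bases after each start site, were found for 7 of the 10 genes (9 windows, 3 of them for Txnrd1). The core of the response element was searched on both strands as TGACNNNGC, without checking for overlap with other motifs. It was present in 4 of the 9 windows, against 12.4% of all 32851 windows of this length. Nfe2l2 held it 240 bases before its start site, Gclm 134 bases before, and a Txnrd1 start site 92 bases before. Srxn1 held it only after the start site, and the windows of Keap1, Nqo1 and Slc7a11 held none. In the stretches below, which run 5′ to 3′ on the strand of the gene, the core is in capitals. It lies on the gene's own strand in Nfe2l2 and on the opposite strand in Gclm and Txnrd1.
Nfe2l2, minus strand, chr2:75704869-75704913: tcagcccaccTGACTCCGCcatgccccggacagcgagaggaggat
Gclm, plus strand, chr3:122245397-122245457: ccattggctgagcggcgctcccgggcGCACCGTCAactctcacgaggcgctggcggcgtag
Txnrd1, plus strand, chr10:82859088-82859148: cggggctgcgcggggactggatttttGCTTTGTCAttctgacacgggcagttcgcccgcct
A match of these letters is a description of the sequence and does not show that Nrf2 binds there. Sequence farther from the start sites was not searched, so a window without the motif does not show that the gene lacks one. Hmox1, Gclc and Gsr had no window in the reference used.

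The libraries held 19701722 to 30138257 counted reads, and 3 counts in the smallest correspond to 0.152 CPM, the count relative to library size, here scaled over all 32 mice by the TMM method. Hmox1, among the lowest of the 10 genes, had 80 counts or more in every mouse. The endogenous mouse Sod1 gene averaged 277 CPM in WT and 251 CPM in G93A cord without treatment at 155 days (adjusted p = 0.458, edgeR's quasi-likelihood test). The human transgene was not analysed here, so the genotype labels were not checked against it. Some libraries stood apart. At 155 days, untreated G93A replicate 12 and OKN-007-treated G93A replicate 15 had over 50 CPM of the liver transcript Alb, and untreated G93A replicates 9 and 10 and treated G93A replicate 13 had a caudal Hox score, a mean log2 CPM over 10 Hox genes that mark the lower cord, under 2. At 90 days, treated WT replicate 8 and treated G93A replicates 13 and 14 also had a Hox score under 2, and no untreated mouse did. The comparisons that include these mice were also fitted without them. At 155 days every G93A mouse (Hox score 3.65 or less) lay below every WT mouse (3.7 or more), also among the mice kept. Leaving mice out therefore does not separate the Hox score from genotype at that age.

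In untreated WT cord at 155 days the 10 genes differed widely in level per exon length (RPKM, CPM per kilobase of all annotated exons of the gene). Srxn1 stood highest at 33.2 ± 2.60 RPKM (SD, n = 4 throughout). Gclc, Keap1, Gsr, Gclm and Txnrd1 followed between 14.5 and 11.4 RPKM, and each overlapped its neighbor in this order over the 4 mice. Nfe2l2 (7.37 ± 0.959 RPKM), Nqo1 (5.52 ± 0.473 RPKM), Hmox1 (2.79 ± 0.384 RPKM) and Slc7a11 (0.646 ± 0.153 RPKM) each lay apart from their neighbors. The genes that changed most in G93A mice, described next, were among the lower ones in healthy cord. Slc7a11, the lowest of all, was not one of them.

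**Figure D1:**
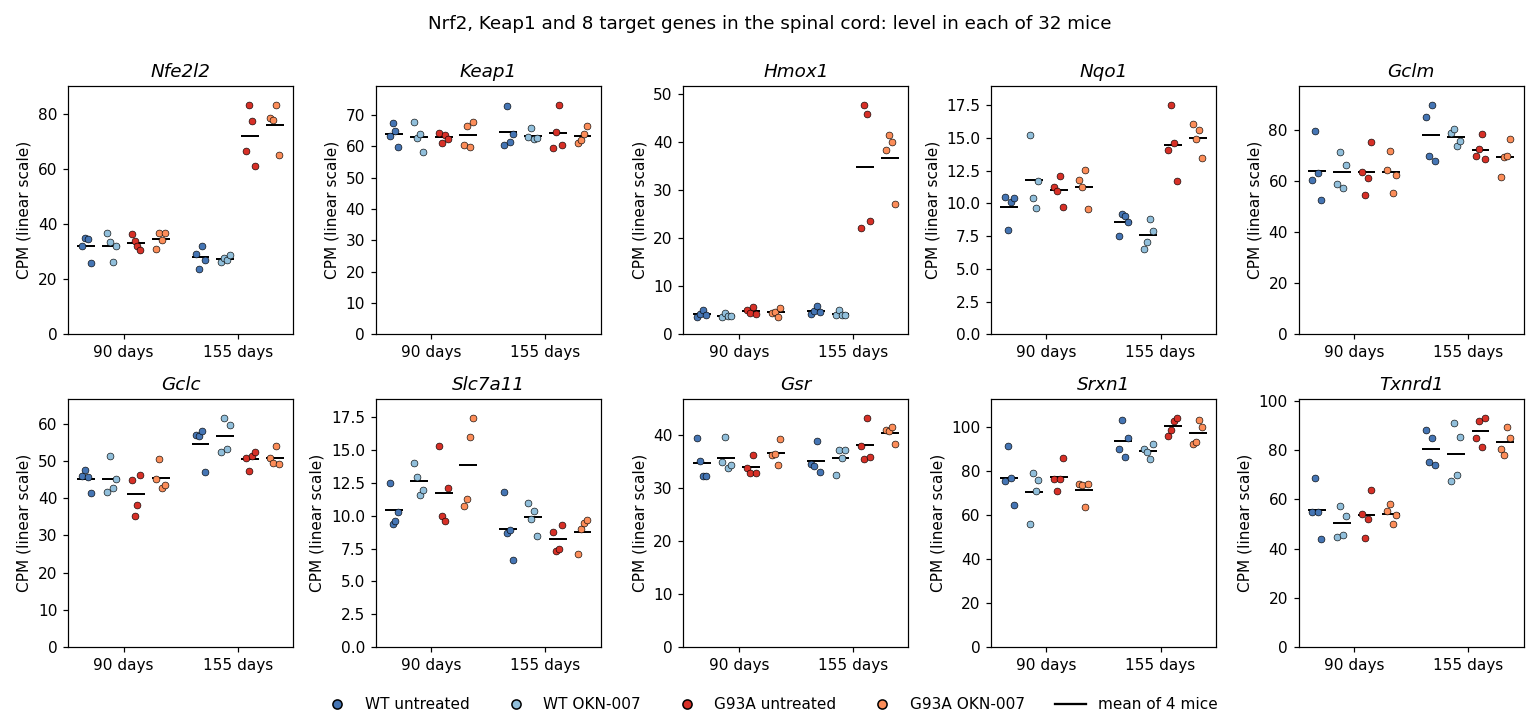
Level of each gene in CPM (linear axis from 0) in every one of the 32 mice. Points are single mice, colored by genotype and treatment, and black lines are means of 4 mice. Nfe2l2, Hmox1 and Nqo1 are higher in both G93A groups at 155 days than in the WT groups of that age, while the other 7 genes overlap between WT and G93A in the untreated mice.

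At 155 days, untreated G93A cord had more Nfe2l2, Hmox1 and Nqo1 RNA than untreated WT cord, and none of the other 7 genes passed the test. The rise was 7.33-fold for Hmox1, 2.65-fold for Nfe2l2 and 1.74-fold for Nqo1. Of the 10 genes, 3 were higher and 0 lower, where 21.3% of all 18675 genes tested were higher and 18.2% lower (adjusted p under 0.05, edgeR's quasi-likelihood test with Benjamini-Hochberg adjustment over all genes, which is the test meant by every adjusted p below). By count alone the 10 genes were therefore close to the background. Their median log2 fold change was 0.16, against 0.00 over all genes. By size, 1.60% of all genes rose more than Hmox1, 5.82% more than Nfe2l2 and 10.9% more than Nqo1.

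Nfe2l2, which encodes Nrf2 itself (chromosome 2, 75675513 to 75704641, minus strand, in the GENCODE M21 annotation of GRCm38), was at 29.2, 23.5, 32.1 and 27.0 CPM in the 4 untreated WT mice. In the 4 untreated G93A mice it was at 66.3, 83.2, 77.5 and 60.9 CPM. The groups did not overlap, and the lowest G93A mouse was far above the highest WT mouse. The log2 fold change was 1.41 (SE 0.10, adjusted p = 2.26e-09), with a 95% interval of 2.30 to 3.07 on the fold scale. Keap1, whose product marks Nrf2 for destruction (chromosome 9, 21229730 to 21239361, minus strand), was at 60.4, 72.8, 61.5 and 64.1 CPM in WT and 59.4, 64.5, 73.3 and 60.3 CPM in G93A mice. These ranges overlapped almost fully, and the interval for Keap1 ran from 0.921 to 1.14 fold. The ratio of Nfe2l2 to Keap1, each per length of all its annotated exons, was 0.541 ± 0.108 in WT and 1.38 ± 0.151 in G93A mice. On this scale Keap1 stood above Nfe2l2 in each WT mouse and below it in each G93A mouse. The lengths of the transcripts actually present were not measured. Exons of Keap1 overlap an antisense gene, Gm16754, and whether the counting used strand is not known.

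Hmox1 encodes heme oxygenase 1, the inducible enzyme that breaks heme into biliverdin, carbon monoxide and iron (chromosome 8, 75093621 to 75100589, plus strand). Untreated WT mice had 4.22, 4.94, 5.79 and 4.58 CPM, and untreated G93A mice had 22.1, 47.8, 45.8 and 23.7 CPM. All G93A mice were above all WT mice, and the G93A mice fell into a lower and a higher pair. The log2 fold change was 2.87 (SE 0.22, adjusted p = 8.83e-09), and the interval was 5.29 to 10.2 fold.

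Nqo1 encodes a quinone reductase and is widely used as a readout of Nrf2 (chromosome 8, 107388225 to 107403206, minus strand). It was at 7.53, 9.15, 9.02 and 8.56 CPM in untreated WT mice. In untreated G93A mice it was at 14.1, 17.5, 14.6 and 11.7 CPM. The groups did not overlap here either, and the log2 fold change was 0.80 (SE 0.12, adjusted p = 3.17e-05), with an interval of 1.47 to 2.07 fold. These 3 genes also passed with each single mouse left out, without the mice with high Alb, and without the mice with a low Hox score.

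Neither subunit of glutamate-cysteine ligase passed, nor did the cystine carrier. Gclc and Gclm encode the catalytic and modifier subunits of this enzyme, which carries out the rate-limiting step of glutathione synthesis, and Slc7a11 encodes the cystine carrier that feeds it. Gclc was at 56.9, 56.6, 58.1 and 46.9 CPM in untreated WT and 50.8, 47.3, 51.3 and 52.3 CPM in untreated G93A mice, with a log2 fold change of -0.07 (interval -0.22 to 0.09). Gclm was at 85.0, 70.0, 90.0 and 68.0 CPM in WT and 69.8, 72.8, 78.6 and 68.5 CPM in G93A mice (log2 fold change -0.06, interval -0.24 to 0.11). The WT and G93A ranges of both subunits overlapped. Slc7a11 was at 11.8, 8.64, 8.90 and 6.64 CPM in WT and 8.75, 7.33, 7.44 and 9.30 CPM in G93A mice (log2 fold change -0.08, interval -0.40 to 0.24). A rise as large as that of Nqo1 lay outside the intervals of all 3 genes. Part of Gclm (244 exonic bases) is shared with Gm6061 on the same strand, and Gm17494 lies on the opposite strand, so its count may not be entirely its own.

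The recycling enzymes lay between. Gsr encodes glutathione reductase, Txnrd1 the cytosolic thioredoxin reductase, and Srxn1 sulfiredoxin, which restores oxidized peroxiredoxins. In untreated mice their log2 fold changes were 0.17 (SE 0.07, adjusted p = 0.0835) for Gsr, 0.18 (SE 0.09, adjusted p = 0.128) for Txnrd1 and 0.15 (SE 0.07, adjusted p = 0.108) for Srxn1. The intervals were 0.01 to 0.32 for Gsr, -0.01 to 0.36 for Txnrd1 and -0.001 to 0.29 for Srxn1. At an unadjusted p under 0.05 by the same test were 4 of the 10 genes, Gsr among them, and 47.2% of all genes. The WT and G93A ranges overlapped for each of the recycling enzymes. Leaving out a mouse brought Gsr past the threshold (log2 fold change 0.21 without WT replicate 3, adjusted p = 0.0475, and 0.22 without G93A replicate 10, adjusted p = 0.0363), and likewise Srxn1 (0.22 without WT replicate 2, adjusted p = 0.0115).

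**Figure D2:**
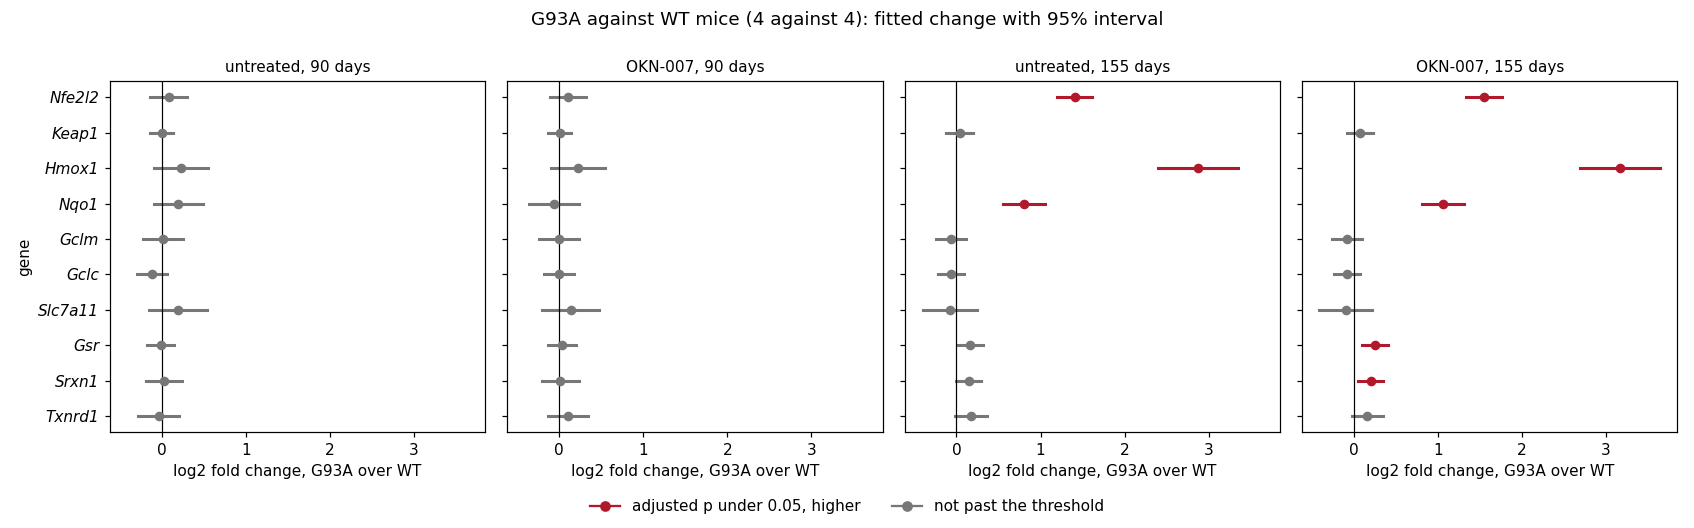
Fitted log2 fold change of G93A over WT mice for each gene, with 95% intervals, 4 mice against 4 in each panel. Red marks an adjusted p under 0.05 and gray the rest. At 90 days every interval includes 0, and at 155 days Hmox1, Nfe2l2 and Nqo1 stand clear of 0 with and without OKN-007.

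The mice in which Hmox1 rose also had more RNA of microglial and astrocyte marker genes, by unequal amounts. All 9 microglial marker genes tested were higher in untreated G93A than WT mice at 155 days, and their summed level was 324 to 393 CPM in WT and 1398 to 2524 CPM in G93A mice. Aif1, which encodes the microglial protein Iba1, had a log2 fold change of 2.70 (adjusted p = 4.17e-09). The smallest and largest changes of this list were 0.39 for P2ry12 and 3.55 for C1qa. The untreated G93A mice with the lower Hmox1 levels (22.1 and 23.7 CPM, replicates 9 and 12) had microglial sums of 1588 and 1398 CPM, and those with the higher levels (47.8 and 45.8 CPM, replicates 10 and 11) had sums of 2271 and 2524 CPM. Nfe2l2 and Nqo1 were also lower in replicates 9 and 12 than in replicates 10 and 11. Astrocyte markers were higher for 6 of 7 genes (sums of 4690 to 5160 CPM in WT and 13080 to 17040 CPM in G93A mice), led by Gfap with a log2 fold change of 2.4 (adjusted p = 1.41e-11). Gfap alone averaged 11260 CPM of a mean G93A sum of 15130 CPM. S100b, which did not pass, had a log2 fold change of 0.07. Of 5 markers of perivascular or infiltrating macrophages, 4 could be tested and 1 was higher (sums of 2.59 to 3.04 CPM against 4.98 to 8.53 CPM). This was Ms4a7, at a mean of 0.0740 CPM in WT and 2.97 CPM in G93A mice (adjusted p = 2.42e-07). Mrc1, at 1.26 and 1.75 CPM, did not pass (adjusted p = 0.0748), although its groups did not overlap, and Lyve1 and Ccr2 stayed under 1 CPM in every mouse. Motor neuron markers were lower for 5 of 6 genes, with Chat at 30.0 CPM in WT and 21.8 CPM in G93A mice, and 4 of 4 general neuronal markers were lower. Of the remaining lists, 1 of 5 oligodendrocyte genes was higher, 5 of 10 caudal Hox genes were lower, and 0 of 4 endothelial, 0 of 5 red blood cell and 0 of 4 tested liver genes passed. The astrocyte sums split as the microglial sums did among the untreated G93A mice. They were 13080 and 13430 CPM in replicates 9 and 12, and 17040 and 16980 CPM in replicates 10 and 11. The macrophage sums were also lower in replicates 9 and 12 (5.95 and 4.98 CPM) than in replicates 10 and 11 (7.24 and 8.53 CPM). The motor neuron sums did not split so (168 and 148 against 167 and 156 CPM). These mice therefore do not tell the microglial, astrocyte and macrophage lists apart. The part of the marker shifts in the higher Nfe2l2, Hmox1 and Nqo1 levels was not tested.

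**Figure D3:**
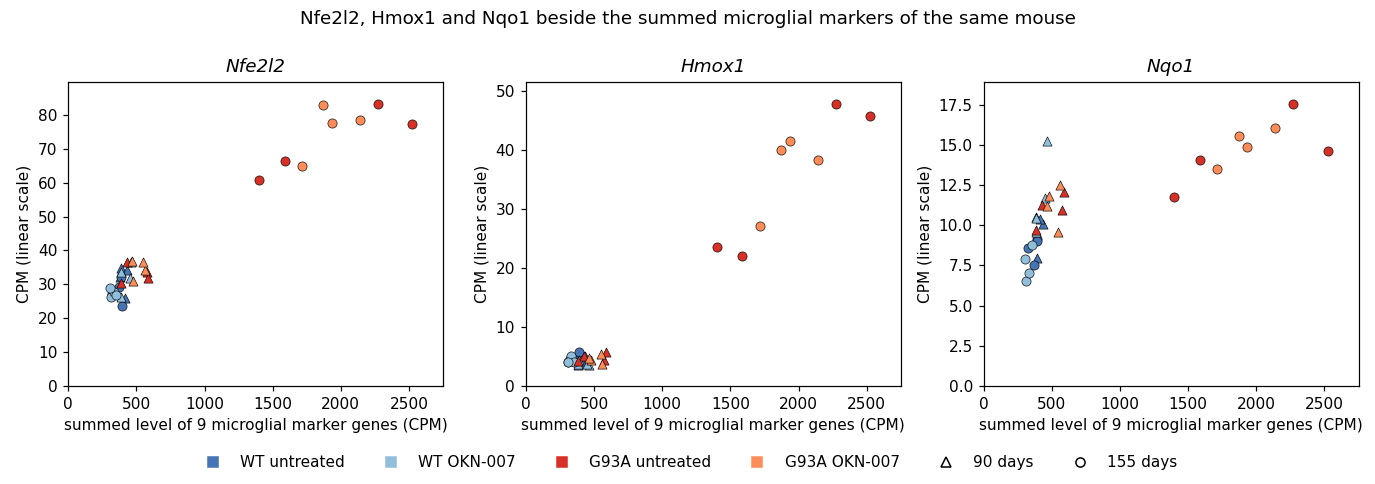
Level of Nfe2l2, Hmox1 and Nqo1 in CPM against the summed CPM of 9 microglial marker genes in the same mouse, linear axes from 0, 32 mice per panel. Colors give genotype and treatment, triangles 90 days and circles 155 days. The 8 G93A mice at 155 days lie apart from all others on the microglial axis, with 1398 CPM or more.

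Among OKN-007-treated mice at 155 days, G93A cord again had more Nfe2l2, Hmox1 and Nqo1 RNA than WT cord, and here Gsr and Srxn1 passed as well. In all, 5 of the 10 genes were higher and 0 lower, where 23.3% of all genes were higher and 18.2% lower, and the median log2 fold change was 0.18 against 0.02 over all genes. These are different mice from the untreated ones, with their own treated WT controls.

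Nfe2l2 was at 26.2, 27.8, 26.8 and 28.8 CPM in treated WT and 78.5, 77.6, 82.9 and 64.9 CPM in treated G93A mice (log2 fold change 1.55, SE 0.10, adjusted p = 5.48e-10). Hmox1 was at 4.00, 5.14, 4.05 and 4.06 CPM in treated WT and 38.4, 41.6, 40.1 and 27.2 CPM in treated G93A mice (log2 fold change 3.17, SE 0.23, adjusted p = 2.29e-09). Nqo1 was at 6.54, 7.03, 8.77 and 7.91 CPM and 16.1, 14.9, 15.6 and 13.5 CPM (log2 fold change 1.06, SE 0.12, adjusted p = 9.02e-07). For none of the 3 genes did WT and G93A mice overlap, and treated G93A replicate 16 was the lowest of its group for all 3. Of the macrophage markers, 2 of 4 were higher in treated mice, Ms4a7 (0.0477 against 4.24 CPM, adjusted p = 2.56e-08) and Mrc1 (1.20 against 1.95 CPM, adjusted p = 0.00901). Astrocyte markers were higher for 5 of 7 genes in treated mice, and motor neuron markers were lower for 6 of 6. The microglial sum of replicate 16, 1715 CPM, was also the lowest of its group, which reached up to 2139 CPM, against 307 to 352 CPM in treated WT mice. So were its astrocyte sum (14090 CPM, with the group up to 16460 CPM) and its macrophage sum (7.01 CPM, up to 9.63 CPM). Its motor neuron sum was the highest of the group (158 CPM, with the lowest at 108 CPM).

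Gsr was at 32.4, 37.1, 35.5 and 37.2 CPM in treated WT and 40.9, 40.6, 41.4 and 38.2 CPM in treated G93A mice. The groups did not overlap, although the rise was small (log2 fold change 0.26, SE 0.07, adjusted p = 0.00903), and it passed under every alternative listed in the closing section. Srxn1 was at 90.0, 88.9, 85.5 and 92.3 CPM in treated WT and 92.4, 93.2, 103 and 100 CPM in treated G93A mice (log2 fold change 0.20, SE 0.07, adjusted p = 0.0285). The groups were barely apart, and the call was lost on leaving out any of treated WT replicates 6 and 7 and treated G93A replicates 14, 15 and 16 (log2 fold changes of 0.16 to 0.20, the highest adjusted p being 0.122). It was also lost without the mice with high Alb (adjusted p = 0.172), without the mice with a low Hox score (adjusted p = 0.0636), with RLE size factors (adjusted p = 0.0524), with no filter on low counts (adjusted p = 0.138) and with all 32 mice in a single fit (adjusted p = 0.177). Txnrd1 (log2 fold change 0.16, adjusted p = 0.159) passed only without treated WT replicate 6 (0.24, adjusted p = 0.0456). Keap1, Gclm, Gclc and Slc7a11 had log2 fold changes between -0.10 and 0.07, and their WT and G93A ranges overlapped.

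At 90 days none of the 10 genes passed the test between G93A and WT mice, with or without OKN-007. Among untreated mice 0 of the 10 passed, and 0 of 18899 genes passed at all (0% called, 1126 genes at an unadjusted p under 0.05 of which 0 were among the 10, and 16 genes called by DESeq2, again 0 of them among the 10). Among treated mice 0 of the 10 and 0% of all genes passed (747 genes at an unadjusted p under 0.05, 0 of the 10 genes, and 3 genes called by DESeq2). With both treatments combined, 8 mice against 8, 0.0159% of all genes were higher and 0.0106% lower, 0 of the 10 genes passed, and 0 were at an unadjusted p under 0.05, where 1250 genes were.

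Nfe2l2 ranged from 25.9 to 34.95 CPM in untreated WT mice and from 30.5 to 36.5 CPM in untreated G93A mice at 90 days. Hmox1 was at 3.58, 4.23, 5.07 and 4.04 CPM in untreated WT and 5.02, 4.48, 5.72 and 4.27 CPM in untreated G93A mice, and at 3.62, 4.45, 3.78 and 3.73 CPM in treated WT and 4.34, 4.70, 3.68 and 5.52 CPM in treated G93A mice. Ranges overlapped under both treatments. Over both treatments its log2 fold change of 0.23 (SE 0.11, adjusted p = 0.754) was the largest of the 10, with an interval of -0.0014 to 0.45. Nqo1 followed no common direction, with log2 fold changes of 0.20 (interval -0.09 to 0.49) in untreated and -0.06 (interval -0.35 to 0.23) in treated mice. Microglial sums at this age were 382 to 433 CPM in untreated WT and 384 to 589 CPM in untreated G93A mice.

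The growth of the genotype difference between 90 and 155 days was tested directly in the untreated mice. Nfe2l2, Hmox1 and Nqo1 had a larger G93A change at 155 than at 90 days, so 3 of the 10 genes were called upward and 0 downward, where 12.9% of all 19829 genes tested were called upward and 8.34% downward. On the log2 scale the change grew by 2.64 for Hmox1 (SE 0.28, adjusted p = 3.01e-08), by 1.31 for Nfe2l2 (SE 0.15, adjusted p = 1.14e-07) and by 0.59 for Nqo1 (SE 0.18, adjusted p = 0.0218). The Nqo1 call was lost on leaving out G93A replicate 12 at 90 days (0.53, adjusted p = 0.0542), WT replicate 1 at 155 days (0.52, adjusted p = 0.0594) or G93A replicate 10 at 155 days (0.48, adjusted p = 0.0779), with the Hox score as a covariate (0.50, adjusted p = 0.0715), and without the 155-day mice with a low Hox score (0.45, adjusted p = 0.138). These are the mice of the untreated comparisons above and add no independent samples. The other 7 genes had differences between -0.29 (Slc7a11) and 0.20 (Txnrd1), and none passed.

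OKN-007 did not shift any of the 10 genes past the threshold at either age or in either genotype. In G93A mice at 155 days, the setting where Nfe2l2, Hmox1 and Nqo1 were raised, 0 of the 10 genes and 0% of 18675 genes passed (755 genes at an unadjusted p under 0.05, 0 of the 10 genes, and 0 genes by DESeq2). Nfe2l2 was at 71.9 ± 10.2 CPM untreated and 76.0 ± 7.74 CPM treated, a log2 fold change of 0.09 (SE 0.10), and the interval of the treated level was 0.925 to 1.22 times the untreated one. Hmox1 was at 34.8 ± 13.9 CPM untreated and 36.8 ± 6.54 CPM treated, with an interval of 0.803 to 1.42 fold. Nqo1 was at 14.5 ± 2.38 CPM untreated and 15 ± 1.11 CPM treated, with an interval of 0.882 to 1.23 fold. Treated and untreated mice overlapped for all 3 genes. The interval was widest for Hmox1, whose level was spread widely among untreated G93A mice.

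In WT mice at 155 days 0 of the 10 genes and 0% of all genes passed (549 genes at an unadjusted p under 0.05, 0 of the 10 genes, and 2 genes by DESeq2, neither of the 10). The log2 fold changes ran from -0.20 for Nqo1 (interval -0.46 to 0.05) to 0.12 for Slc7a11 (interval -0.20 to 0.44). At 90 days 0 of the 10 genes and 0% of 18899 genes passed in G93A mice (1050 at an unadjusted p under 0.05, 0 by DESeq2), and the same held in WT mice (769 at an unadjusted p under 0.05, 0 by DESeq2). The largest effects at 90 days were in WT mice, where Slc7a11 (log2 fold change 0.28, interval -0.06 to 0.63) and Nqo1 (0.28, interval -0.02 to 0.57) were the highest of the 10. Nqo1 was at 10.5, 7.95, 10.1 and 10.4 CPM in untreated and 15.3, 10.4, 9.61 and 11.7 CPM in treated WT mice at 90 days, which overlapped, and treated replicate 5 alone exceeded the rest by over 3 CPM.

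**Figure D4:**
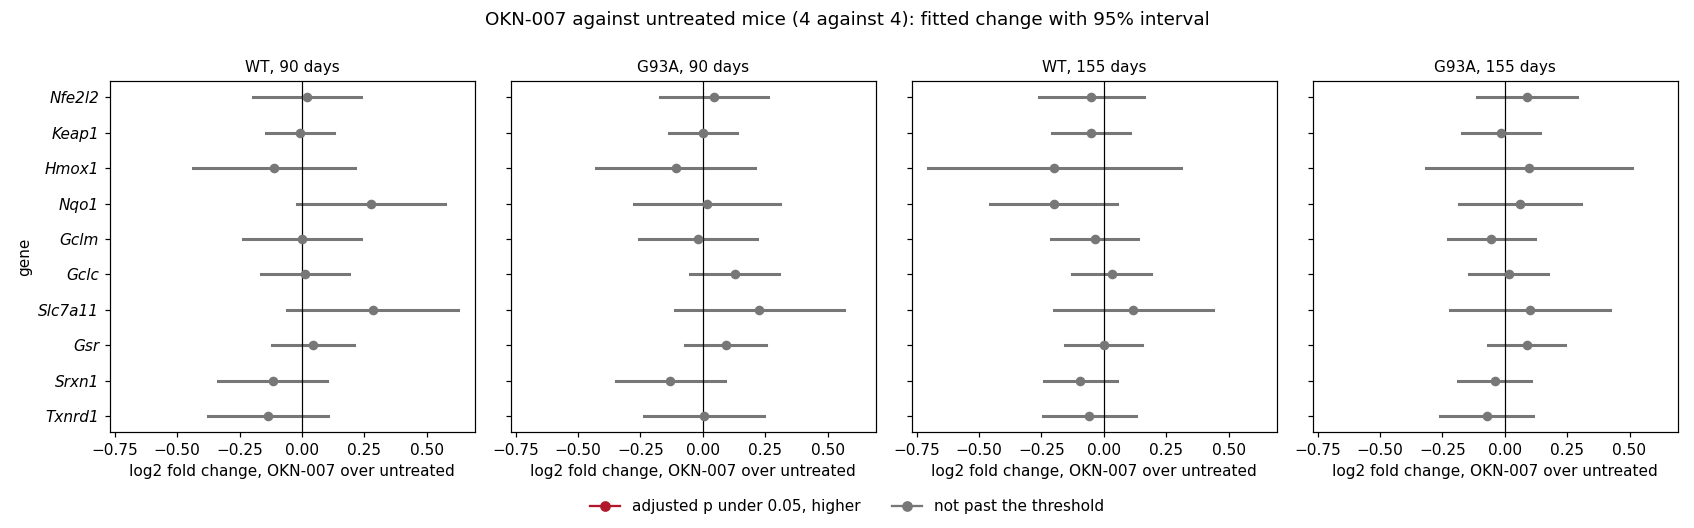
Fitted log2 fold change of OKN-007-treated over untreated mice for each gene, with 95% intervals, 4 mice against 4 in each panel. All intervals include 0, and the widest are those of Hmox1 and Slc7a11.

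Whether OKN-007 acted differently in G93A and WT mice was tested as a genotype by treatment interaction. At 155 days 0 of the 10 genes and 0% of all genes passed (437 genes at an unadjusted p under 0.05, 0 of the 10 genes, and 2 genes by DESeq2, neither of the 10). The largest interactions among the 10 genes were those of Hmox1 (log2 0.29, interval -0.36 to 0.95) and Nqo1 (0.26, interval -0.09 to 0.61). The higher count of genes called in treated than in untreated G93A mice above is therefore not a tested difference between treatments. At 90 days 0 of the 10 genes and 0% of all genes passed (531 genes at an unadjusted p under 0.05, 0 of the 10 genes, and 0 by DESeq2).

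A wider set of 52 pathway genes, in 6 lists by role, was read from the same fits. The lists were chosen with earlier results of these data known, so their counts beside those of all genes are a description only. In untreated mice at 155 days 28 of the 52 were higher in G93A cord, 6 were lower and 18 did not pass, with a median log2 fold change of 0.28 against 0.00 over all genes. In treated mice 28 were higher, 10 lower and 14 did not pass, with a median of 0.26 against 0.02. Over all genes, 21.3% were higher and 18.2% lower in untreated mice, and 23.3% and 18.2% in treated mice.

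Among 11 regulators and partners of Nrf2, 3 were higher, 3 lower and 5 not called in untreated mice (median log2 fold change 0.02). The higher ones were Maff and Mafk, small Maf proteins that pair with Nrf2 and also with other factors, and Bach1, a repressor that competes for the same sites and holds down Hmox1. Maff was at 4.72, 2.73, 3.46 and 7.55 CPM in WT and 18.4, 18.3, 45.1 and 17.1 CPM in G93A mice, a log2 fold change of 2.45 (SE 0.33, adjusted p = 9.47e-06), and G93A replicate 11 was far above the rest. Mafk rose by a log2 fold change of 1.14 (adjusted p = 0.000261) and Bach1 by 0.51 (adjusted p = 0.000366). The lower ones were Cul3, the scaffold of the ligase that Keap1 serves, and Gsk3b and Btrc, which act in a Keap1-independent route of Nrf2 destruction, with log2 fold changes of -0.28, -0.49 and -0.29.

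In untreated mice more effector genes were higher than lower. Of 11 glutathione genes, 6 were higher and 3 lower (median 0.23). The largest rises were in Mgst1, a membrane-bound glutathione transferase (16.5 against 38.9 CPM, log2 fold change 1.28, adjusted p = 2.67e-06), Gpx1, a glutathione peroxidase (81.2 against 179 CPM, 1.18, adjusted p = 1.32e-05), and Slc3a2, the partner chain of Slc7a11 and of other amino acid carriers (117 against 171 CPM, 0.58, adjusted p = 0.00072). Gss, which encodes glutathione synthetase, the enzyme of the second step of glutathione synthesis, was also higher (36.2 against 39.99 CPM, 0.19, adjusted p = 0.0374), with ranges that overlapped. The lower ones were the transferases Gstm5 (-0.43) and Gsta4 (-0.32) and the glutaredoxin gene Glrx (-0.39). Of 7 thioredoxin genes, 4 were higher and 0 lower (median 0.33). Prdx6, a peroxiredoxin abundant in astrocytes, was at 223 ± 23.0 CPM in WT and 866 ± 313 CPM in G93A mice (log2 fold change 2.0, adjusted p = 2.27e-08). Txnip, which encodes an inhibitor of thioredoxin, also rose (1.19, adjusted p = 0.00416, with ranges that overlapped), as did Prdx1 (0.68, adjusted p = 3.10e-06).

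Of 6 genes for NADPH, the reductant that Nqo1, Gsr and Txnrd1 consume, 5 were higher and 0 lower (median 0.38). They were led by the pentose phosphate enzymes Pgd (33.4 against 47.6 CPM, log2 fold change 0.56, adjusted p = 2.0e-05) and G6pdx (67.8 against 95.4 CPM, 0.54, adjusted p = 9.65e-06) and by malic enzyme, Me1 (93.5 against 120.0 CPM, 0.41, adjusted p = 0.000184). Of 6 heme and iron genes, 2 were higher and 0 lower (median 0.18): the ferritin chains Ftl1 (70.1 against 240 CPM, 1.82, adjusted p = 6.60e-08) and Fth1 (0.38, adjusted p = 0.0193, with overlapping ranges). Fth1 lost the call in 3 alternatives and on leaving out any of WT replicates 1 and 4 and G93A replicates 10 and 11 (0.30 to 0.36 without them). Ferritin and peroxiredoxin genes have near-identical pseudogene copies, so their counts are uncertain. The constitutive heme oxygenase Hmox2 did not pass (-0.15, adjusted p = 0.117). Of 11 other reported targets 8 were higher and 0 lower (median 0.42), with Akr1b8, an aldo-keto reductase, at 1.29 against 5.42 CPM (2.11, adjusted p = 5.89e-08), Osgin1 at 0.430 against 1.47 CPM (1.82, adjusted p = 0.00296, overlapping ranges and as few as 3 counts in a mouse) and Ephx1, microsomal epoxide hydrolase, at 41.1 against 75.0 CPM (0.91, adjusted p = 1.66e-05).

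In treated mice at 155 days the counts of higher and lower genes were 4 and 3 of 11 for the regulators, 6 and 3 of 11 for glutathione, 4 and 1 of 7 for thioredoxin, 4 and 0 of 6 for NADPH, 2 and 2 of 6 for heme and iron, and 8 and 1 of 11 for the other targets. Those lower in treated but not called in untreated mice were Rbx1, a subunit of the ligase that holds Cul3 (log2 fold change -0.20, adjusted p = 0.0135), the thioredoxin reductase gene Txnrd3 (-0.27, adjusted p = 0.0201), Hmox2 (-0.21, adjusted p = 0.0295), Blvra, which encodes biliverdin reductase (-0.26, adjusted p = 0.00876), and Cbr1, a carbonyl reductase gene (-0.22, adjusted p = 0.0241). Gss was higher here too (0.24, adjusted p = 0.0102). No gene of these lists passed the test between treated and untreated G93A mice or the interaction at 155 days, so the differing counts are not a tested difference between treatments. Several of the genes that rose are also expressed strongly in the glia whose markers rose, and the part of that rise in their levels was not tested.

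**Figure D5:**
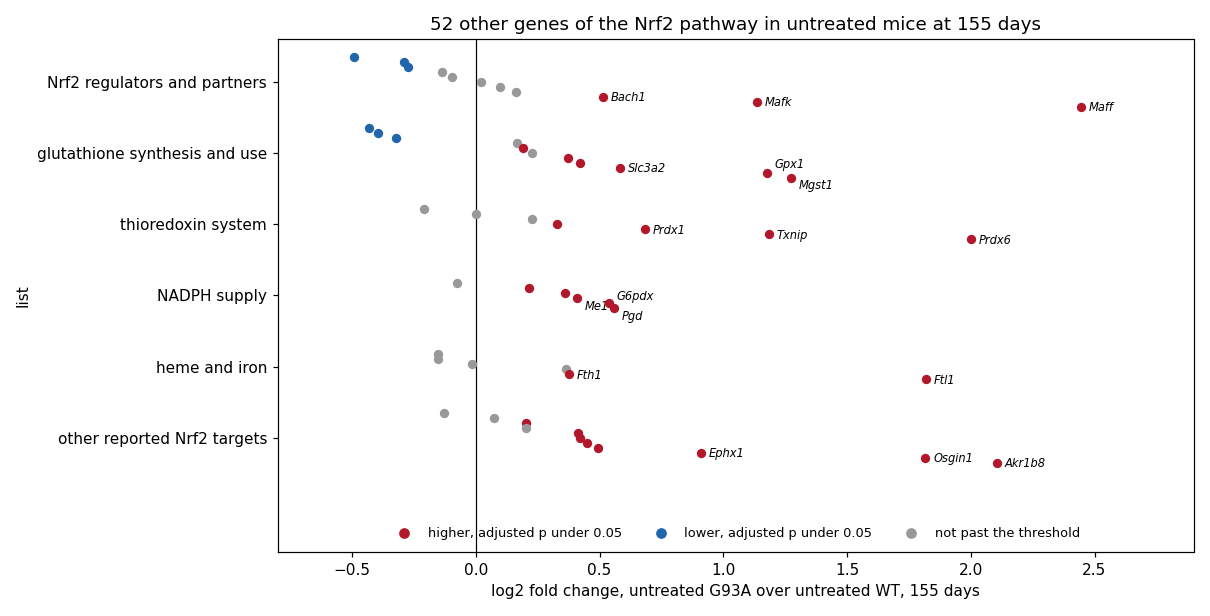
Fitted log2 fold change of untreated G93A over untreated WT mice at 155 days for 52 further genes of the pathway, 1 point per gene, by list. Red and blue mark higher and lower genes with an adjusted p under 0.05, gray the rest, and the labelled genes are the largest changes of each list. Maff, Akr1b8 and Prdx6 lie at a log2 fold change of 2 or above, and the 6 lower genes are all among the regulators and the glutathione genes.

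Without the mice with high Alb, 3 of the 10 genes and 35 of the 52 pathway genes passed in untreated mice and 4 and 31 in treated mice. Without the mice with a low Hox score, the counts were 3 and 26 in untreated and 4 and 32 in treated mice. Over the 8 alternative fits, these among them, 5158 to 7692 of all genes passed in untreated and 5995 to 8758 in treated mice. For the growth of the genotype difference between ages, 3 of the 10 genes passed without the mice with high Alb. Without the 155-day mice with a low Hox score, 2 passed. Of all genes, 3104 to 4829 passed over the alternative fits of that comparison. For OKN-007 in G93A mice and for the interaction at 155 days, 0 passed without either set. Without the 90-day mice with a low Hox score, 0 of the 10 genes passed between G93A and WT mice with OKN-007 or with both treatments combined, for OKN-007 in either genotype, or for the interaction at that age.

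Levels at the 2 ages are set side by side without a test, because the labels do not say whether the ages were prepared and sequenced together, and age and any such difference cannot be told apart. Txnrd1 was higher at 155 than at 90 days in all 4 combinations of genotype and treatment without overlap, from 55.7 to 80.5 CPM in untreated WT and from 53.5 to 88.0 CPM in untreated G93A mice. Srxn1 went from 77.1 to 93.8 CPM in untreated WT and from 77.4 to 101 CPM in untreated G93A mice, and its ranges lay apart in 3 of the 4 combinations. Gclc and Gclm were also 1.09 to 1.25 times as high at 155 days in each combination, with ranges that overlapped in 5 of 8 cases. Slc7a11 went the other way, from 13.9 to 8.79 CPM in treated G93A mice, and lay lower at 155 days in all 4 combinations, without overlap in 3. Keap1 and Gsr were at 0.997 to 1.12 times their level at 90 days. Nqo1 was lower at 155 days in treated WT mice (11.7 to 7.56 CPM) and higher in treated G93A mice (11.3 to 15 CPM), both without overlap. For Nfe2l2 and Hmox1 the ages differed without overlap only in G93A mice, at 2.17 and 7.15 times in the untreated and 2.20 and 8.07 times in the treated groups.

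The patterns of Nfe2l2 and Hmox1 over the 32 mice were most like those of genes outside the pathway lists. By Pearson correlation of log2 CPM over the 32 mice, among 19664 genes, Palld (r = 0.978), Emp1 (r = 0.977) and Ptprc (r = 0.977), the last a pan-leukocyte gene, were closest to Nfe2l2. Cd34 (r = 0.989), Lgals3bp (r = 0.988) and Man2b1 (r = 0.986) were closest to Hmox1. Such values describe the shared step between the 8 G93A mice at 155 days and the other 24, and all genes of a mouse come from the same library.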

How the data were processed

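Raw gene counts of 32 spinal cord libraries, prepared with a stranded mRNA kit, were used as deposited by the authors without normalization. The study's methods name Trimmomatic, STAR, HTSeq and a GENCODE annotation of GRCm38, whereas the submitters' processing notes name FastQC, STAR, featureCounts and edgeR with mouse and human builds, so the counter and build are not settled. Of 42524 gene IDs, 96.9% were paired with symbols and positions of GENCODE M21 (GRCm38), and 1306 IDs are numbered above its highest. The strand setting of the counting is not given in the sources used here.

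The 16 mice of an age shared a fit of 4 groups in edgeR 4.0.16, run under R 4.3.3 with limma 3.58.1 (filterByExpr, TMM, glmQLFit, glmQLFTest, two-sided, no covariate, Benjamini-Hochberg over all genes tested). The difference between ages was fitted on all 32 mice. A gene was called at an adjusted p under 0.05. Standard errors were computed as the size of the fitted log2 fold change divided by the square root of the test's F statistic. Intervals use this standard error and the degrees of freedom of that fit, and cover the spread between these mice only. The procedure was checked on simulated counts. Alternatives were DESeq2 1.42.0, RLE size factors, no filter, a Hox covariate, other sets of mice in the fit, a replicate block and leaving out each mouse; leaving out the mice with high Alb or a low Hox score was added after seeing the data.

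The 10 genes, the pathway and marker lists were chosen with earlier results of these data known. Named are the 10 genes in every comparison, the 3 largest changes of each pathway list among called genes, Gfap, Aif1 and Chat of the markers, and mouse Sod1. Also named are the 3 genes outside the 10 most like Nfe2l2 and Hmox1, the members with the smallest adjusted p. The lower pathway genes, Hmox2, Gss, P2ry12, C1qa, S100b, Ms4a7, Mrc1, Lyve1, Ccr2 and Alb were named after their values were seen. Libraries of the same group always differed by more than sampling noise (chi-square of at least 3.81 per gene), and all columns belonged to the 32 mice.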

Additional observations from a re-analysis of the deposited data

Results flagged for a closer look

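The G93A change in untreated mice differed between 155 and 90 days for Nfe2l2 (by 1.31 on the log2 scale), Hmox1 (2.64) and Nqo1 (0.59), by edgeR's test of the difference itself.

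Single mice stood apart from the other 3 of their group in 4 of 80 combinations of gene and group by Dixon's test, where chance gives about 4. Hmox1 was at 5.14 CPM in treated WT replicate 6 at 155 days, with the next mouse at 4.06 CPM. Nqo1 was at 7.95 CPM in untreated WT replicate 2 at 90 days, with the next at 10.1 CPM. Gclc was at 46.9 CPM in untreated WT replicate 4 at 155 days, with the next at 56.6 CPM. Srxn1 was at 63.8 CPM in treated G93A replicate 15 at 90 days, with the next at 73.7 CPM.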

How the results depend on the processing

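The number of the 10 genes called kept within 1.5 times its value in every comparison and alternative run. It was 3 in untreated mice at 155 days under each alternative fit and 3 to 4 with single mice left out, 4 to 5 in treated mice, 0 throughout at 90 days, for OKN-007 and for the interactions, and 2 to 3 for the difference between ages. Of the 52 pathway genes, 25 to 35 passed in untreated and 28 to 41 in treated mice under other fits, and 29 to 37 and 30 to 36 with single mice left out. Over all genes the ranges were 5158 to 7692 and 5995 to 8758 under other fits. With single mice left out they were 6147 to 7577 and 6537 to 7599. Calls lost in part were Srxn1 in treated mice, Nqo1 between ages and Fth1 (0.26 with the Hox covariate, 0.37 with only the groups compared, 0.32 without the mice with a low Hox score); the cause was not tested.

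Genes near 0 changed sign. Between ages, Gclc was at -0.019 with the Hox covariate, and with single mice left out it ran from -0.032 to 0.10, Keap1 from -0.038 to 0.099 and Gclm from -0.22 to 0.021. In untreated mice at 155 days the same ranges were -0.025 to 0.12 for Keap1, -0.11 to 0.0032 for Gclm and -0.18 to 0.075 for Slc7a11.

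Counts over all genes moved most where few passed. With no filter on low counts, 39 genes were called in untreated and 24 in treated mice at 90 days and 108 with both combined, 8 and 14 for OKN-007 in G93A and WT mice at 90 days, 17 and 10 at 155 days, and 3 and 6 for the interactions at 90 and 155 days. With both treatments combined at 90 days, DESeq2 called 66 genes, the fit of all mice 21, and leaving out single mice 3 to 54, the most without G93A replicate 12; without the 90-day mice with a low Hox score it was 0.

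Replicate numbers are shared between the ages only, where the mice differ. Deviations of same-numbered mice correlated between -0.22 and 0.13, and 2 of 16 mice were most like their own number, so the numbers were not taken as pairs. With a replicate block, 3 of the 10 genes and 4197 of all genes differed between ages.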
